A study of Mus musculus with 10 samples.

Results

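The genes that copy DNA and supply its building blocks were followed in mouse ileum, the final stretch of the small bowel, with and without interferon-gamma (IFNg). The list holds 47 genes, chosen by name with earlier results of these data known. They are the factors that license and fire replication origins, the polymerases and primase, the clamp and its loader, the enzymes of deoxynucleotide (dNTP) supply, the fork checkpoint, chromatin replication factors and the genes that control entry into S phase. Of the 47 genes, 44 have probes in the table of non-normalised values, 76 probes in all of 25697. A probe counted as measured when its detection p was under 0.05 on 5 or more of the 10 arrays. On that rule 35 genes were measured, by 44 probes, of 8685 genes measured on the whole array. A gene with several measured probes is represented by the one with the highest mean over all samples. Gins1, Gins2 and Rfc3 were not analysed here.

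RNA of whole ileum was profiled on Illumina mouse bead arrays, 1 array per sample, in 5 wild-type (WT) samples, WT_640 to WT_644, and 5 samples of genotype IFNgKO, IFNgKO_645 to IFNgKO_649, each named by its title. Values are given in that order throughout. All were from male C57Bl/6 mice, 8 weeks of age, on standard chow in a specific-pathogen-free unit and without treatment. The labels split the arrays into array set 1, with 2 samples of each genotype (WT_640, WT_641, IFNgKO_645 and IFNgKO_646), and array set 2, with 3 of each. The knockout is named in the labels by genotype alone, and nothing there says outright that every title number is a different mouse, so p-values describe the spread between these samples, which may be technical.

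A replicating cell first loads the Mcm2 to Mcm7 ring onto origins in G1 phase, with the origin recognition complex, Cdc6 and Cdt1. At the start of S phase, cyclin-dependent kinase activity turns that ring into a working helicase with Cdc45 and the GINS complex, and polymerases follow it. Many of these genes are switched on together by E2F transcription factors when a cell commits to division. In the small intestine most dividing cells are progenitors of the crypts, the pits at the base of the villi, while the villus surface holds cells that have left the cycle. IFNg is a cytokine of T and natural killer cells.

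The promoters of the list were read from RefSeq (GRCm38.p6), as windows of 300 bases that run from 250 before the annotated start to 50 after it. They are shown because many replication genes are known to carry E2F sites, and the rule that chose the genes did not use sequence. The table held windows for 39 of the 47 genes. The E2F motif was searched as TTTCCCGC, TTTCGCGC, TTTGCCGC or TTTGGCGC on both strands, with overlapping matches counted separately. A match stood in the window of 14 of these 39 genes (35.9%), against 575 of 17492 protein-coding genes (3.29%). Origin licensing genes held it in 7 of 9. The pentamer CCAAT, searched on both strands, stood in 22 of the 39 (56.4%), against 42.3% of protein-coding genes. Windows of Clspn, Mcm3, Mcm5 and Mcm6 are given below with the E2F matches in capitals, beside that of Tyms, which held none.
Clspn: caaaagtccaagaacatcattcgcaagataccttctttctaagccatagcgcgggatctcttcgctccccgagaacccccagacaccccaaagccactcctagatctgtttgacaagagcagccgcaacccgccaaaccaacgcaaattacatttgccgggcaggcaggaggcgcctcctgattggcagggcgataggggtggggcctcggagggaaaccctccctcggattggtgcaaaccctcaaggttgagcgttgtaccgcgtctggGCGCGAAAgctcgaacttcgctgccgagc
Mcm3: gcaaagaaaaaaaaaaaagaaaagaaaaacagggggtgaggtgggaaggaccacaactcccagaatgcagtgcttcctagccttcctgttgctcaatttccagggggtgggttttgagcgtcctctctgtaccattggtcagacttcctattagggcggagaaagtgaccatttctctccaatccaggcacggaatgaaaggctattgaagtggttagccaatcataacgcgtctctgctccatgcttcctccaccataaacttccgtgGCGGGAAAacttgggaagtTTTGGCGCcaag
Mcm5: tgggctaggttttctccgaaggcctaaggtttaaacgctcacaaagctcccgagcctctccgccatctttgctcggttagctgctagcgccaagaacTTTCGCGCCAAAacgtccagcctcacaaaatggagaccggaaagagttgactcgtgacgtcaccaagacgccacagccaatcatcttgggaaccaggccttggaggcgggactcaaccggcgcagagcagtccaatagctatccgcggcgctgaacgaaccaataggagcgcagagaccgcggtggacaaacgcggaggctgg
Mcm6: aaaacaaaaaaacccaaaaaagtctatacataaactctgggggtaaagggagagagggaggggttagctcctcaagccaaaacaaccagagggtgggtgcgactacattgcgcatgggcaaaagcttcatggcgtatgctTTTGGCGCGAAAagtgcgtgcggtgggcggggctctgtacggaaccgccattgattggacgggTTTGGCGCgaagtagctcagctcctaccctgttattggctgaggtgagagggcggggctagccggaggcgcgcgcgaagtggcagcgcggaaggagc
Tyms: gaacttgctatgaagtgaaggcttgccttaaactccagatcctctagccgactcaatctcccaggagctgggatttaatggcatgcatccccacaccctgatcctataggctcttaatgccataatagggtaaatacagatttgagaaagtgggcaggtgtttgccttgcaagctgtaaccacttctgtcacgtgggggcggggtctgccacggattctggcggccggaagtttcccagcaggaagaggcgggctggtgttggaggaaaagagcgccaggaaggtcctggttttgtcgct
The Clspn window is chr4:126556730-126557029, plus strand, and its match starts 21 bases after the annotated start. Mcm3 (chr1:20820263-20820562, minus strand) has its matches 19 and 38 bases after the start. In Mcm5 (chr8:75109259-75109558, plus strand) the run of capitals is a pair of overlapping matches on opposite strands, 153 and 149 bases before the start. Mcm6 (chr1:128359656-128359955, minus strand) carries a like overlapping pair at 110 and 106 bases before the start and a further match at 47 before it. The Tyms window is chr5:30073576-30073875, minus strand. Such matches describe letters in a window, and a window without one says nothing of the factor.

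The arrays detected 10618 to 12975 probes each. Mean raw intensity was 500.2 to 762.4 in WT and 628.4 to 804.1 in the knockout, and the ranges overlapped. The sample WT_641 stood apart, with the fewest probes detected and an array weight of 0.28. Both Ifng probes were undetected on every array, and so the arrays do not check the genotype. Of the ileum's own markers, Fabp6, the ileal bile acid-binding protein, was at 15.01 in WT and 14.87 in the knockout (mean log2 level), while the probe of Slc10a2, the ileal bile acid transporter, was detected on none. Array set was fitted throughout, since 19.2% of tested probes differed between the sets past 5% (limma).

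Most replication genes were somewhat higher in the knockout, and none passed the test. Knockout and WT were compared with limma with array set fitted, and p-values were adjusted by Benjamini-Hochberg over all 12039 tested probes. Of the 35 measured genes, 0 passed 5%, and 0.0166% of all tested probes did. At an unadjusted p under 0.05, 14 genes of the 35 (40%) were higher and 0 lower. That count was 9 without sample WT_643, 2 with array set 1 only and 12 with array set 2 only. Of all tested probes 5.86% were higher and 6.38% lower at that p, and with 1 probe per gene 5.63% were higher. Of the 35, 30 had a difference above 0 (85.7%), against 51% of all tested probes and 49.8% of measured genes. Their median difference was 0.23 log2 units, against -0.0012 for all measured genes, and single genes ran from -0.28 (Ccne2) to 0.75 (Tyms). The genes were measured in the same samples, so these counts are a description and no test was made over them. The list was chosen with earlier results of these data known, so the gap to all genes is not independent of that choice.

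The filter could favour genes that are bright in 1 genotype, so the same values are given for the 30 genes detected on all 10 arrays. Of these 27 were higher, and their median was 0.27, against -0.0073 for all probes detected on all 10. In a whole tissue, more dividing cells and more RNA per dividing cell cannot be told apart. Within array set 1 the median was 0.13 with 21 of 35 higher, and array set 2 gave 0.31 with 30 of 35 higher. In both sets, 19 genes were higher and 3 lower, where 30.8% of all tested probes were higher in both. The remaining 13 took opposite signs in the sets, a share like that of all genes. Of the 8685 measured genes, 2855 were lower in both sets and 3187 took opposite signs. Without sample WT_641, the median was 0.32 with 31 of 35 higher. All 5 knockout samples lay above all 5 WT samples for 4 genes, Clspn, Tyms, Tipin and Mcm4, which is 11.4% of the 35 against 0.829% of all measured genes and 0.706% of all tested probes. The opposite separation held for 0 members and 0.631% of probes.

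**Figure D1:**
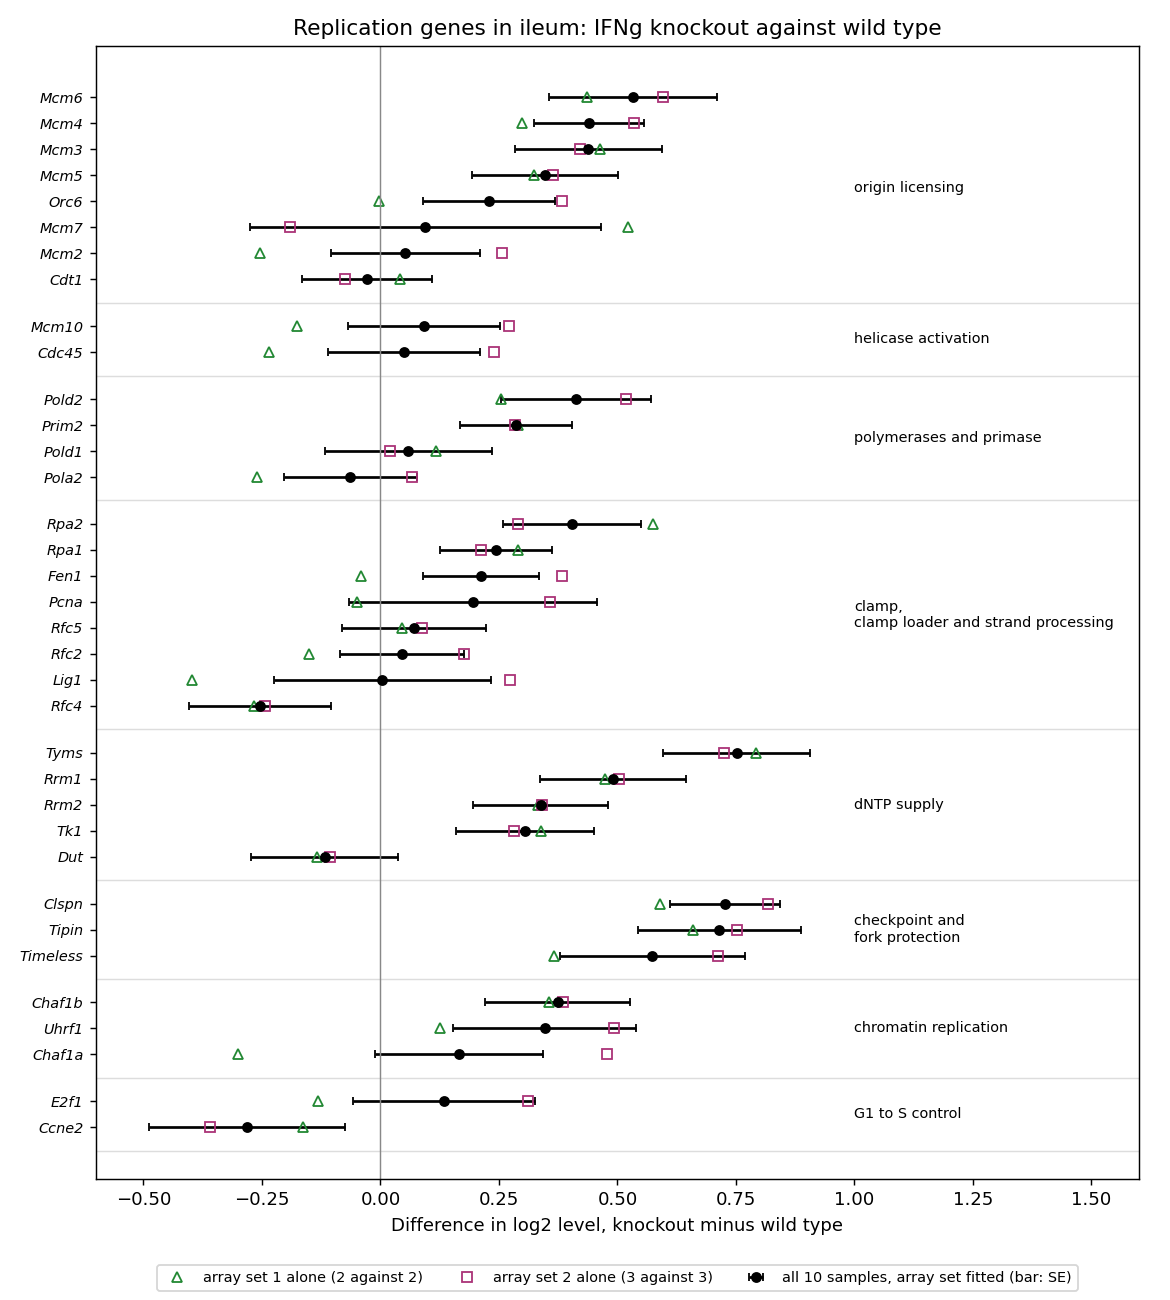
Difference in log2 level, knockout minus wild type, for the 35 measured replication genes grouped by role; black points are the fit over all 10 samples with its SE, triangles array set 1 alone and squares array set 2 alone. The points of 30 genes lie right of 0, farthest for Tyms at 0.75, Ccne2 lies farthest left at -0.28, and the sets part most for Chaf1a, Lig1 and Mcm7.

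Checkpoint and fork protection genes had the largest median difference of the role groups. All 3 measured ones were higher at an unadjusted p under 0.05, where 5.63% of all measured genes were, and their median was 0.71. Of 12 measured checkpoint genes outside the 47, given below, 0 were higher and 1 lower at that p, with a median of -0.069. Clspn encodes claspin, the adaptor through which the kinase ATR activates Chek1 at stalled forks. Its log2 levels in WT samples WT_640 to WT_644 were 7.83, 7.66, 7.66, 7.66 and 7.69, and in knockout samples IFNgKO_645 to IFNgKO_649 they were 8.28, 8.39, 8.42, 8.47 and 8.57. Every knockout sample was above every WT sample, and the WT values other than that of WT_640 lay within a few hundredths of each other. The means were 7.70 ± 0.077 and 8.42 ± 0.11 (SD, n = 5 each), a difference of 0.73 ± 0.12 (SE) or 1.65-fold, with an adjusted p of 0.107 (limma). Array set 1 gave 0.59 and array set 2 gave 0.82. Clspn did pass 5% under median scaling (adjusted p = 0.0221), in the authors' value table (0.0494) and without the filter on dim probes (0.0271), while its adjusted p was 0.902 within array set 1, the highest of the settings tried. Median scaling also moved the median difference of all tested probes to 0.19. The other measured Clspn probes differed by 0.43 and 0.054.

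Tipin and Timeless form the complex that couples helicase and polymerase at the fork. Tipin stood at 8.56, 7.98, 8.53, 8.44 and 7.94 in WT and at 8.72, 9.14, 9.15, 8.76 and 9.25 in the knockout. Again the groups did not overlap, although sample WT_640 and knockout sample IFNgKO_645 were close. The difference was 0.71 ± 0.17 (SE, adjusted p = 0.239, limma), with 0.66 and 0.75 in array sets 1 and 2. Timeless differed by 0.57 ± 0.20 (adjusted p = 0.305), with overlapping groups, and by 0.44 without knockout sample IFNgKO_649. Chek1, the checkpoint kinase itself, was detected on no array by any of its 3 probes.

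Of the dNTP supply enzymes, 4 of 5 were higher, and the median of the group was 0.34. Tyms, the thymidylate synthase that makes the DNA base precursor dTMP from dUMP, was at 8.09, 7.72, 8.55, 8.56 and 8.24 in WT samples WT_640 to WT_644. In the knockout it was at 8.71, 8.68, 9.10, 8.85 and 9.57 in samples IFNgKO_645 to IFNgKO_649. The knockout samples were all higher, most of all IFNgKO_649, and the lowest value was that of sample WT_641. The means were 8.23 ± 0.35 and 8.98 ± 0.37 (SD, n = 5 each), a difference of 0.75 ± 0.15 (SE; 1.68-fold; adjusted p = 0.175, limma). Array sets 1 and 2 gave 0.79 and 0.72.

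Rrm1 and Rrm2 encode the large and small subunits of ribonucleotide reductase, which makes deoxynucleotides from ribonucleotides. Rrm1 levels were 9.40, 8.93, 9.41, 8.86 and 8.75 in WT against 9.70, 9.57, 9.50, 9.39 and 9.64 in the knockout. WT samples WT_640 and WT_642 reached the lowest knockout sample, IFNgKO_648, and the other WT samples lay well below. It differed by 0.49 ± 0.15 (SE, adjusted p = 0.286). Rrm2 read 6.58, 6.92, 6.61, 6.24 and 6.65 in WT and 7.25, 6.92, 6.81, 7.05 and 6.67 in the knockout, a difference of 0.34 ± 0.14 (adjusted p = 0.374), and the highest WT sample, WT_641, stood among the knockout samples. Tk1, the thymidine salvage kinase, was higher by 0.30 ± 0.15. Dut, which clears dUTP, went the other way at -0.12 ± 0.15.

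Origin licensing genes were higher in 7 of 8 measured cases, with a median of 0.29. All 6 subunits of the Mcm2 to Mcm7 helicase were measured and had differences above 0, with a median of 0.39, but they were not alike in size. Mcm4 was at 11.08, 11.02, 10.94, 10.93 and 10.90 in WT and 11.25, 11.46, 11.37, 11.48 and 11.52 in the knockout. The genotypes did not overlap, and the spread within WT was small. Its means of 10.97 ± 0.077 and 11.41 ± 0.11 (SD, n = 5 each) gave a difference of 0.44 ± 0.12 (SE, 1.36-fold, adjusted p = 0.242, limma), with 0.30 and 0.53 in array sets 1 and 2.

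Mcm6 levels were 8.94, 8.30, 8.66, 8.73 and 8.89 in WT and 9.30, 8.81, 9.19, 9.09 and 9.80 in the knockout. Knockout sample IFNgKO_646 lay below 2 WT samples, and IFNgKO_649 was far above the rest. The Mcm6 difference was 0.53 ± 0.18 (SE, adjusted p = 0.302) and 0.41 without sample IFNgKO_649. Mcm3 read 6.17, 6.16, 5.80, 6.32 and 5.49 in WT and 6.49, 6.76, 6.16, 6.32 and 6.40 in the knockout, and sample WT_644 was the lowest. It differed by 0.44 ± 0.16 (adjusted p = 0.321). Mcm5 was higher by 0.35 ± 0.15, whereas Mcm2 (0.053 ± 0.16) and Mcm7 (0.095 ± 0.37) were near 0 with signs that changed between the sets. Orc6, of the origin recognition complex, was at 0.23 ± 0.14, and Cdt1, which loads the ring, at -0.028 ± 0.14.

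The factors that turn the loaded ring into an active helicase differed little. Mcm10 was at 9.92, 10.54, 10.16, 9.91 and 9.70 in WT and 10.20, 9.91, 10.26, 10.20 and 10.12 in the knockout. Cdc45, which travels with the ring, was at 7.53, 7.34, 7.19, 6.50 and 6.93 in WT and 7.02, 7.38, 7.13, 7.10 and 7.12 in the knockout. In both genes the knockout values lay inside the WT range. Their differences of 0.092 ± 0.16 and 0.050 ± 0.16 (SE) had adjusted p-values of 0.843 and 0.919 (limma).

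Polymerases and primase were mixed. Pold2, an accessory subunit of the lagging-strand polymerase delta, was at 9.13, 9.80, 9.42, 9.03 and 9.44 in WT and 9.53, 9.91, 9.88, 9.76 and 9.80 in the knockout. Only sample WT_641 reached the knockout range. The difference was 0.41 ± 0.16 (SE, adjusted p = 0.349, limma), yet Pold1, the catalytic subunit, was at 0.059 ± 0.18. Prim2, the large primase subunit, stood at 6.81, 6.57, 6.68, 6.52 and 6.56 in WT and 7.06, 6.90, 6.82, 6.79 and 6.999 in the knockout, with a difference of 0.29 ± 0.12 (adjusted p = 0.370) and the same size in both sets. Pola2, of the polymerase that carries primase, was at 8.99, 9.11, 8.65, 8.30 and 8.75 in WT and 8.87, 8.71, 8.77, 8.71 and 8.42 in the knockout, or -0.063 ± 0.14 apart (adjusted p = 0.876), with full overlap.

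Among clamp, clamp loader and strand-processing genes 7 of 8 were higher, with a median of 0.13. The single-strand binding proteins led. Rpa2 was at 6.47, 6.09, 6.53, 6.10 and 6.60 in WT and 6.93, 6.77, 6.57, 6.66 and 6.87 in the knockout. Sample WT_644 edged above the lowest knockout sample, IFNgKO_647. Rpa2 differed by 0.40 ± 0.15 (SE, adjusted p = 0.330, limma). Rpa1, its large partner, read 11.12, 11.40, 11.24, 11.14 and 11.07 in WT and 11.45, 11.65, 11.35, 11.32 and 11.43 in the knockout, 0.24 ± 0.12 apart (adjusted p = 0.420), with sample WT_641 inside the knockout range. Fen1, the nuclease that trims lagging-strand flaps, read 9.97, 10.004, 9.72, 9.79 and 9.75 in WT and 9.93, 9.97, 10.13, 10.10 and 10.17 in the knockout. Its difference was 0.21 ± 0.12 (adjusted p = 0.500), or -0.042 within array set 1 and 0.38 within array set 2.

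The sliding clamp Pcna differed by 0.19 ± 0.26, on a probe detected on 2 WT and 4 knockout arrays. The clamp loader subunits Rfc2 (0.045 ± 0.13), Rfc5 (0.071 ± 0.15) and Rfc4 (-0.25 ± 0.15) and the DNA ligase Lig1 (0.0043 ± 0.23) showed no common direction.

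Chromatin replication genes were all higher, 3 of 3. Chaf1b, a subunit of the histone chaperone CAF-1, was at 7.98, 8.41, 8.14, 7.88 and 7.81 in WT and 8.24, 8.86, 8.21, 8.28 and 8.50 in the knockout, a difference of 0.37 ± 0.15 (SE, adjusted p = 0.369, limma). Its groups overlapped through sample WT_641. Uhrf1, which brings the maintenance methyltransferase to new DNA, was at 7.92, 7.76, 9.30, 9.07 and 9.37 in WT and 7.96, 7.97, 9.11, 9.82 and 10.29 in the knockout. Its levels were 1.59 higher in array set 2 than in array set 1. Between genotypes the difference was 0.35 ± 0.19 (adjusted p = 0.487), or 0.18 without knockout sample IFNgKO_649. Chaf1a, the large CAF-1 subunit, was at 0.17 ± 0.18, with -0.30 and 0.48 in the sets.

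The measured G1 to S control genes were 2, and neither stood apart from the spread. E2f1, the transcription factor that turns on S phase genes, was at 7.20, 8.25, 7.63, 7.51 and 7.40 in WT and 7.37, 7.83, 7.75, 7.76 and 7.96 in the knockout, with sample WT_641 the highest of all, and differed by 0.13 ± 0.19 (SE, adjusted p = 0.802, limma). Ccne2, a cyclin E gene, was at 5.26, 5.87, 6.44, 6.69 and 5.53 in WT and 5.32, 5.48, 5.87, 5.66 and 6.05 in the knockout, -0.28 ± 0.21 apart (adjusted p = 0.603). It was detected on 2 WT and 3 knockout arrays, and the groups overlapped.

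**Figure D2:**
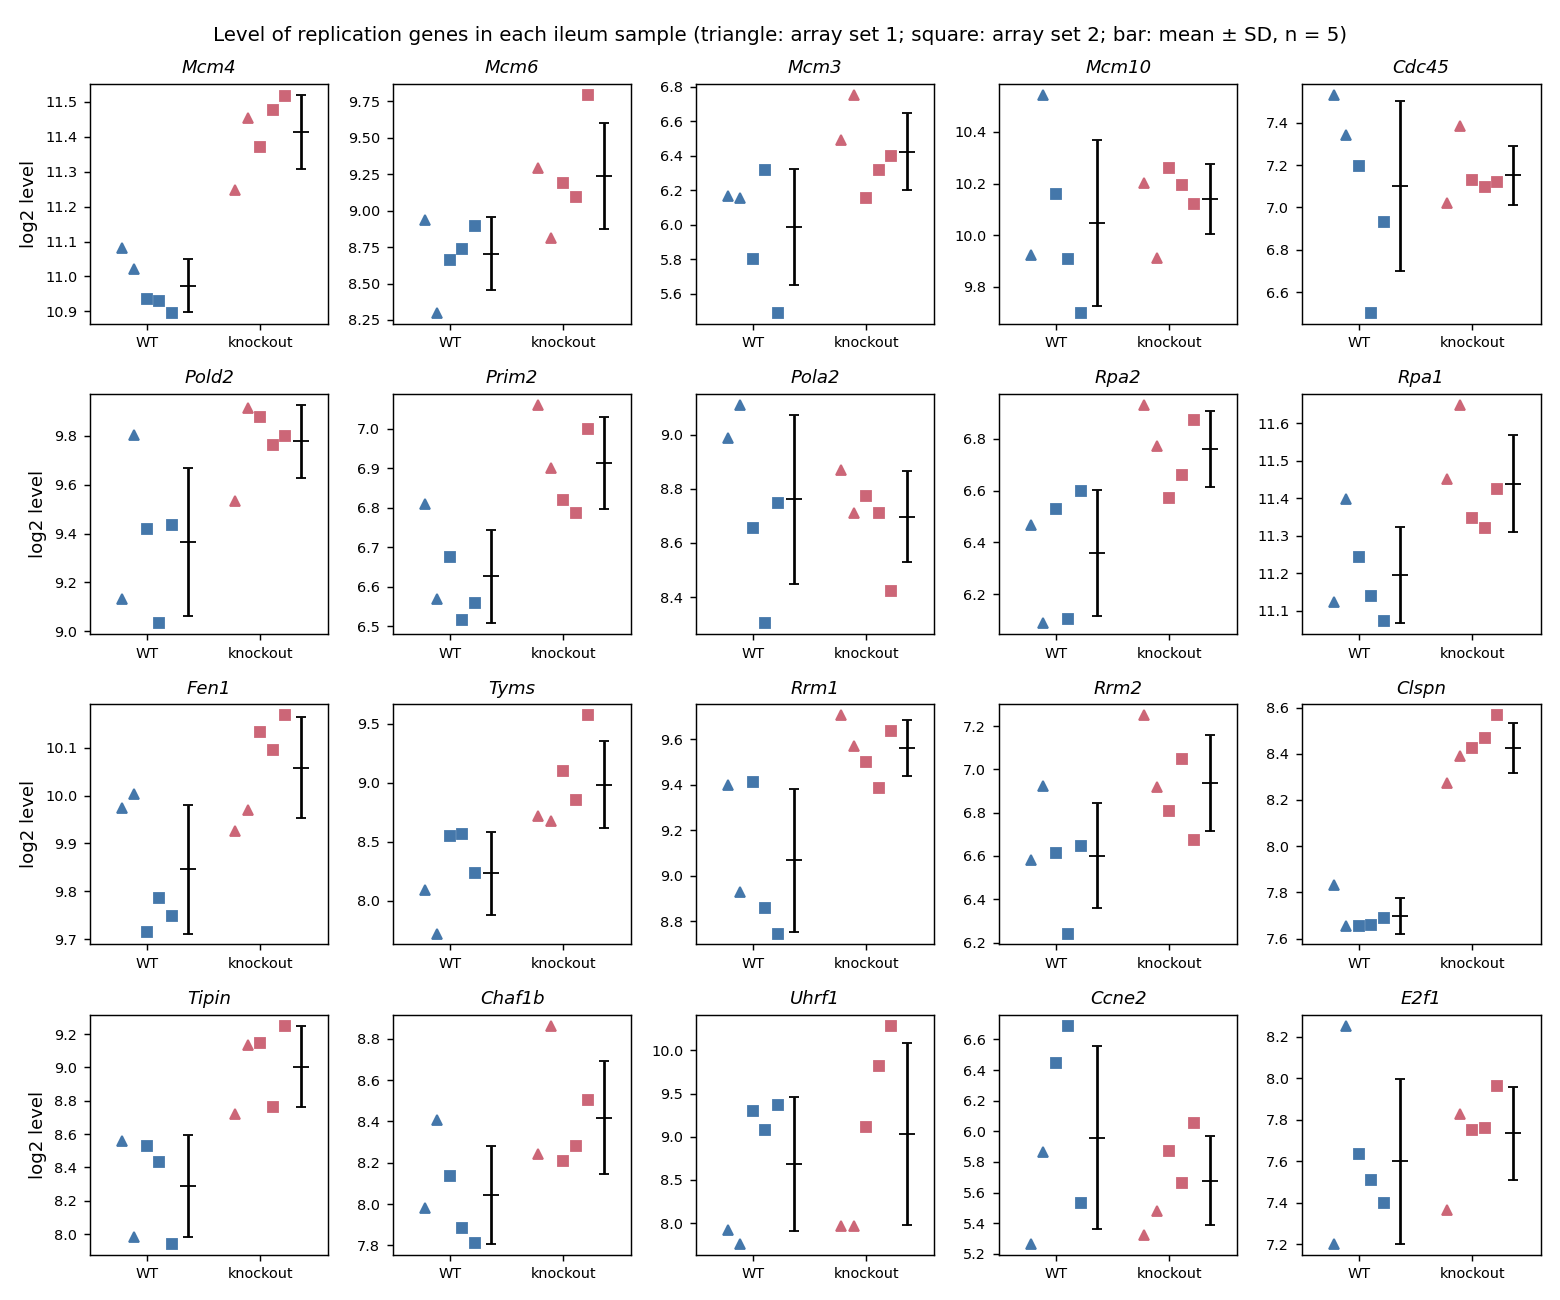
Log2 level of 20 replication genes in each ileum sample, WT in blue and knockout in red, with array set 1 as triangles, array set 2 as squares and the mean ± SD (n = 5) as bars; each panel has its own axis. The groups part for Clspn, Tipin, Tyms and Mcm4, and Uhrf1 parts by array set.

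The remaining 9 genes had probes but were not measured. Orc1, Pola1, Prim1, Pole2, Chek1 and Slbp were detected on no array. Cdc6, the licensing ATPase, had a probe detected on 1 WT and 3 knockout arrays and Pole, the leading-strand polymerase, likewise on 1 and 3. Ccne1, the other cyclin E gene, was detected on 0 WT and 2 knockout arrays. Raw intensities of the unmeasured probes of these genes lay between 59.3 and 129, and no difference is given for them.

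Probes of 1 gene did not always agree. Clspn had 3 measured probes, and the other pair differed by 0.43 ± 0.14 and 0.054 ± 0.22 (SE) against 0.73 ± 0.12 for the brightest. The Mcm6 probe nearest in brightness to the one used differed by 0.096 ± 0.14, against 0.53 ± 0.18, and a dim one by 0.62 ± 0.25. For Tyms the other measured probe gave 0.37 ± 0.26, for Rrm2 0.48 ± 0.15, for Tk1 0.21 ± 0.16 and for Mcm10 0.038 ± 0.15. Rfc4 had probes of opposite sign, at -0.25 ± 0.15 and 0.35 ± 0.21. Averaging all measured probes of a gene left 31 of 35 higher with a median of 0.23.

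**Figure D3:**
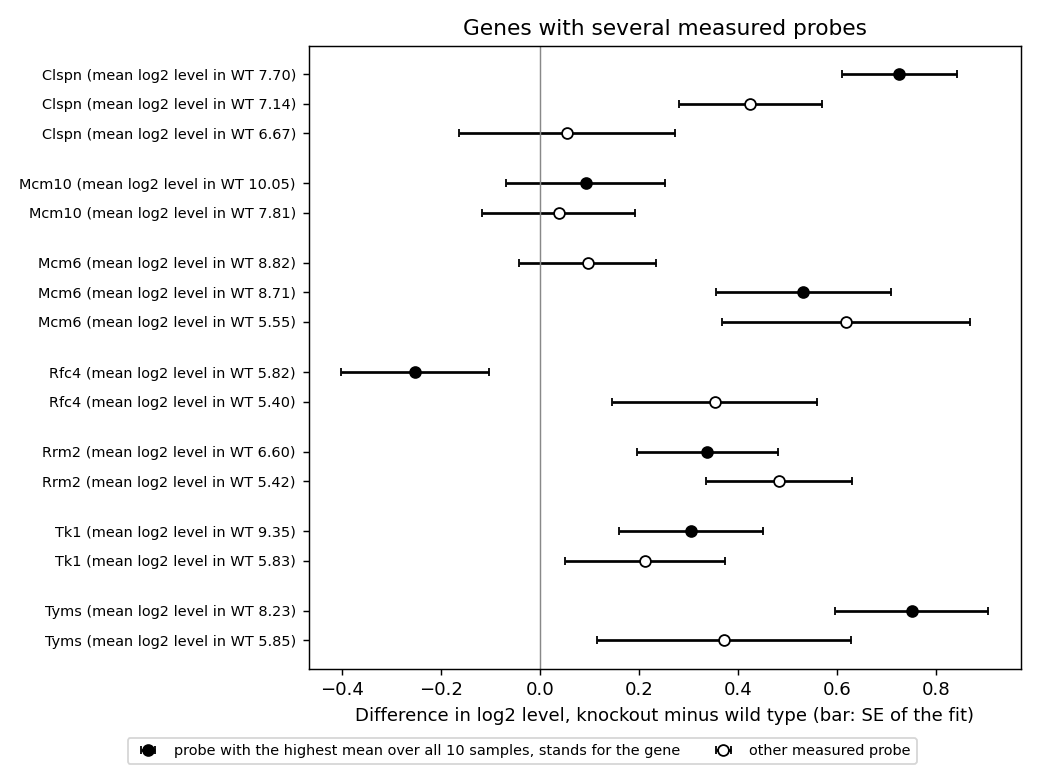
Difference in log2 level, knockout minus wild type, with the SE of the fit, for every measured probe of the 7 replication genes that have several; filled points are the probes used for the gene. Rrm2 and Tk1 probes lie close together, Clspn and Mcm6 probes spread, and those of Rfc4 lie on both sides of 0.

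Samples also differed among themselves in how high the whole list stood. Each gene was set against its mean in its array set, where both genotypes are equally represented, and the median over the 35 genes was taken for each sample. In WT samples WT_640 to WT_644 it was -0.21, 0.035, -0.027, -0.25 and -0.17, and in knockout samples IFNgKO_645 to IFNgKO_649 0.046, 0.11, 0.10, 0.10 and 0.26. Sample WT_641 was the highest in WT and IFNgKO_645 the lowest in the knockout, at nearly the same value, while WT_643 and IFNgKO_649 marked the ends. In sample WT_643, 5 of 35 genes were above the mean of the array set, and in sample IFNgKO_649, 31 were. Over all measured genes the same medians ran from -0.014 to 0.052.

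**Figure D4:**
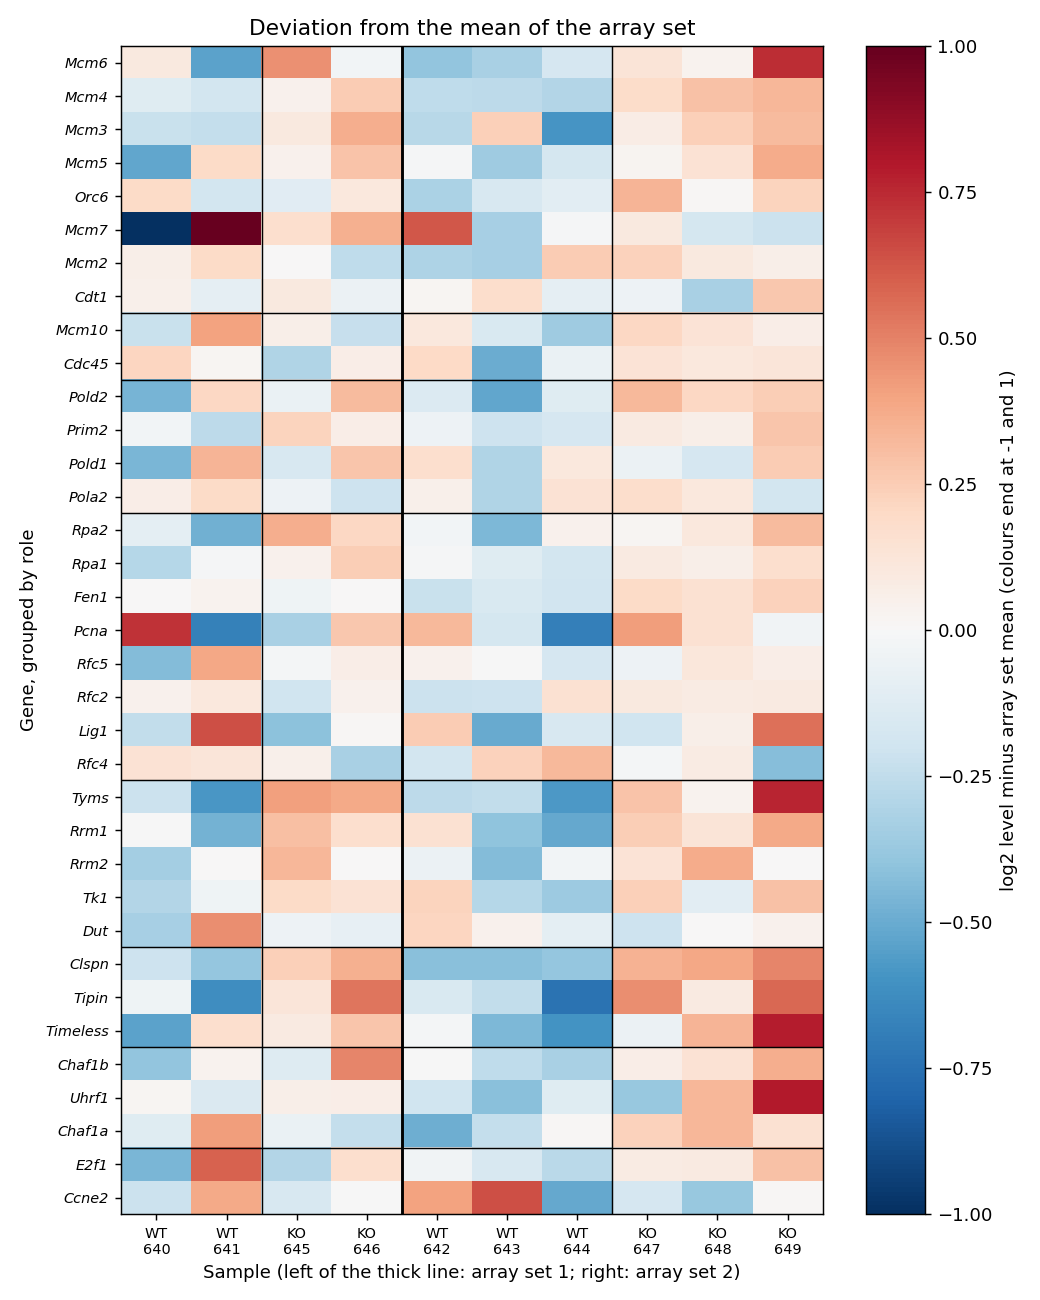
Log2 level minus the mean of the array set for 35 replication genes (rows, grouped by role) in 10 samples (columns, array set 1 left of the thick line); red is above and blue below that mean. Clspn is red in all 5 knockout samples and blue in all 5 WT samples, and sample IFNgKO_649 has the most red rows.

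Other genes of the same pathways, on lists of textbook members that are not among the 47, were set beside them. No gene on these lists passed 5% over all probes (limma, lowest adjusted p = 0.239). For scale, 49.8% of all measured genes were higher, 5.63% were higher at an unadjusted p under 0.05, and 0.829% were higher with no overlap. Of other replication machinery 14 of 20 were higher, with a median of 0.15, with 3 higher and 1 lower at an unadjusted p below 0.05. Rpa3, the smallest subunit of the RPA complex, was higher by 0.60 ± 0.15 (SE) with no overlap of the groups, so that all 3 RPA subunits had differences above 0. Pole4, a small subunit of polymerase epsilon, was at 0.40 ± 0.15, and Orc2, of the origin recognition complex, at -0.39 ± 0.16. Of other nucleotide synthesis genes 19 of 25 were higher, with a median of 0.12. Cad, which starts pyrimidine synthesis, was at 0.39 ± 0.14, Shmt1, which feeds folate carbon to Tyms, at 0.56 ± 0.21, and Nme2, a nucleoside diphosphate kinase, at 0.35 ± 0.16.

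Chromatin replication genes outside the 47 were higher in 8 of 9 cases, with a median of 0.17. They were led by Dnmt1, the maintenance methyltransferase (0.36 ± 0.17), Rbbp7 (0.43 ± 0.26) and Asf1a (0.29 ± 0.19), histone-binding proteins. The other G1 to S control genes were higher in 15 of 17 cases, with a median of 0.085. Mybl2, a cell cycle transcription factor, differed by 0.43 ± 0.14 with no overlap, Rbl1 by 0.31 ± 0.22 and Cdk2 by 0.17 ± 0.16. Of the other checkpoint genes 5 of 12 were higher, with a median of -0.069. Cdkn1a, the p21 inhibitor of cyclin-dependent kinases, was at -0.38 ± 0.13, Mdm2, the ligase of p53, at -0.25 ± 0.14, and Cdc25a, a phosphatase that activates those kinases, at -0.20 ± 0.14. Mitosis genes were higher in 16 of 19 cases, with a median of 0.17. At an unadjusted p under 0.05, 5 of them were higher and 0 lower, where 5.63% of all measured genes were higher. Mad2l1, of the spindle checkpoint (0.52 ± 0.15), Prc1, of the central spindle (0.36 ± 0.13), and Kif23, of cytokinesis (0.35 ± 0.13), had the lowest p.

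Markers of the cells that could carry these genes are given beside them, and their part in the result was not tested. Crypt stem and progenitor markers were higher in 7 of 13 measured genes, where 49.8% of all measured genes were. The median of the crypt list was 0.073 (-0.028 and -0.036 in array sets 1 and 2). The summed raw intensity of these markers was 11832 to 24116 in WT and 15588 to 23776 in the knockout. Such sums, here and below, are of values before normalisation and carry the brightness of each array. Znrf3, Ephb3 and Msi1 were detected on no array. Rnf43, which dampens Wnt signalling, was at -0.42 ± 0.15 (SE) and Olfm4, a stem cell marker, at 0.43 ± 0.25. The Rnf43 probe was near background, detected on 5 of 10 arrays with means of 5.684 in WT and 5.265 in the knockout. Olfm4 was detected on all 10. Villus enterocyte markers were higher in 6 of 11, their median being 0.0079 and their sum 106260 to 177810 in WT and 137450 to 193380 in the knockout; Fabp2 and Slc10a2 were not detected. Their lowest p-values were those of Apoa4 (-1.21 ± 0.47) and Mttp (-0.34 ± 0.14).

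Macrophage, T cell and B cell markers were mostly higher in the knockout, and none of them passed 5% (limma, lowest adjusted p = 0.175). At an unadjusted p under 0.05, 4 of 9 macrophage markers, 4 of 8 T cell markers and 2 of 2 B cell markers were higher, and 1 T cell marker was lower. Over all measured genes, 5.63% were higher at that p, and 49.8% had a difference above 0. Macrophage and dendritic cell markers were higher in 9 of 9 measured genes, with a median of 0.35. Their summed raw intensity was 2852 to 3810 in WT and 4345 to 5134 in the knockout, without overlap. Those sums are not normalised. Mean raw intensity over all probes was 500.2 to 762.4 in WT and 628.4 to 804.1 in the knockout. After normalisation the per-sample medians of this list overlapped, at -0.47 to 0.068 in WT and 0.020 to 0.46 in the knockout. Fcgr3 differed by 0.61 ± 0.16 and C1qb by 0.51 ± 0.15, and Itgax and Itgam were detected on no array. T cell markers were higher in 6 of 8, their median being 0.31 and their sum 1150 to 1643 in WT and 1556 to 2025 in the knockout, with overlap. Txk was at -0.64 ± 0.12 and Cd8b1 at 1.14 ± 0.24, while Cd8a, Cd4, Gzma and Gzmb were not detected on any array. The probes used for Txk and Cd8b1 were each detected on only 5 arrays, the fewest the filter allows. Txk means were 5.847 in WT and 5.205 in the knockout, and Cd8b1 means were 5.075 and 6.218. For both genes the lower mean was near background. Of the B cell markers 2 of 12 with a probe were measured, Pou2af1 (0.66 ± 0.23) and Cd79b (0.49 ± 0.20), with a sum of 240 to 356 in WT and 323 to 468 in the knockout, also with overlap. Ms4a1, Cd22, Pax5, Blk, Cr2 and Cxcr5 were detected on no array. Germinal centre markers were higher in 1 of 3, Bcl6 being at -0.34 ± 0.16 and Lmo2 at 0.24 ± 0.17, with a sum of 1268 to 2514 in WT and 1793 to 2454 in the knockout, and Mybl1, Gcsam and Rgs13 were not detected.

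By sample, the median of the macrophage list was -0.47 to 0.068 in WT and 0.020 to 0.46 in the knockout, relative to the array set. For T cell markers the ranges were -0.29 to -0.064 and -0.12 to 0.26. Those of the crypt list were -0.11 to 0.15 and -0.14 to 0.22. Sample IFNgKO_649 was the highest sample for the replication, mitosis, crypt and macrophage lists.

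**Figure D5:**
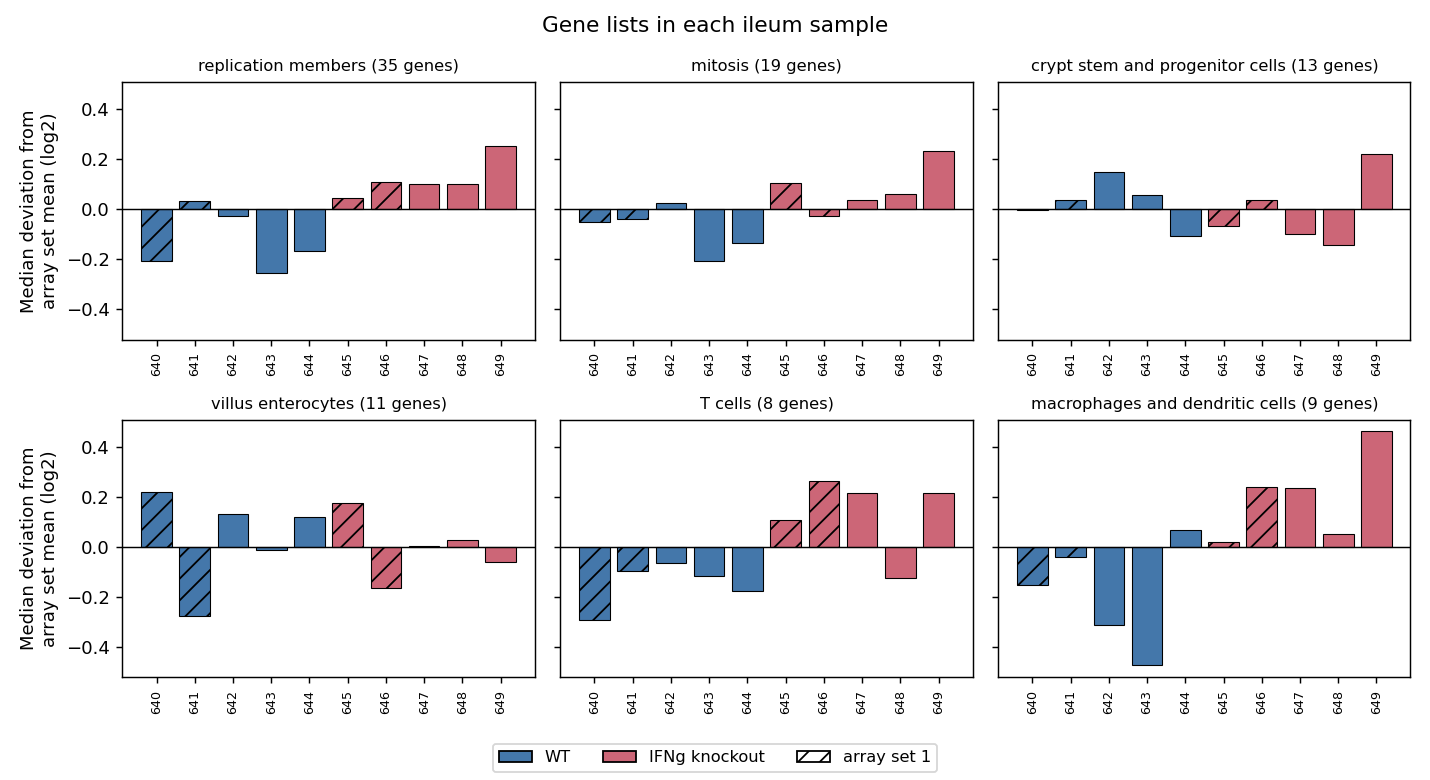
Median over the measured genes of each list of the log2 level minus the mean of the array set, for 10 samples; blue bars are WT, red bars knockout and hatched bars array set 1. Replication genes are at -0.25 to 0.035 in WT and 0.046 to 0.26 in the knockout, while crypt and villus lists lie on both sides of 0 in both genotypes.

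The promoter windows were also set against the measured differences. Of the 30 measured genes with a window, 9 held an E2F match, and 8 of these were higher. Their median was 0.35 and their range -0.028 to 0.73. Among the 21 without a match 18 were higher, the median being 0.21 and the range -0.25 to 0.75. The ranges overlap almost wholly. Tyms, with the largest difference, held no match, and Cdt1, with one, differed by -0.028.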

How the data were processed

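Per the labels, RNA of whole ileum was hybridised to Illumina mouse bead arrays, 1 array and 1 colour per sample. The authors deposited probe intensities without normalisation, each with a detection p-value per probe and array, and a table of intensities that the values show to be linear and quantile normalised. The submitters' processing notes name lumi; its role, the scanner software and the build are not given in the sources used here.

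The non-normalised intensities were background corrected (normexp, its control means taken from the detection p-values by limma's neqc), given an offset of 16, quantile normalised and put on a log2 scale with limma 3.58.1 in R 4.3.3. Levels are not comparable between probes. Probes detected (p under 0.05) on at least 5 of 10 arrays were kept, 12039 of 25697. Genotype was fitted with array set as a term (lmFit, eBayes), with Benjamini-Hochberg adjustment over all tested probes. The fit was tested on simulated data. Number of arrays limits the precision.

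Probe names came from the platform annotation, updated through RefSeq GRCm38.p6: 23978 probes had 1 symbol, 0 several and 1719 none, and 23971 matched. Members and lists were chosen with earlier results of these data known. Values in every sample are given for the 3 measured members of each role list (2 in lists of 4 or fewer) with the lowest unadjusted p. Of each pathway list the 3 genes with the lowest p are named, and of marker lists the 2 with the lowest p and markers that were not detected. Alternatives covered background correction, scaling, the deposited normalised table, the filter, array set, array weights, eBayes settings, averaged probes, a threshold of 10% and each sample left out.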

Additional observations from a re-analysis of the deposited data

Results flagged for a closer look

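Each measured gene was screened in each genotype for a single sample far from the others (Dixon's rule at 95%). Of 70 groups, 2 were picked out, and chance alone picks about 1 in 20. Sample WT_642 had an Rfc4 level of 5.41, below the other WT samples at 5.83 to 5.98. Sample WT_640 had a Clspn level of 7.83, above the other WT samples at 7.66 to 7.69. Clspn differed between genotypes by 0.77 without that sample (adjusted p = 0.0596, limma) and by 0.73 with it.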

How the results depend on the processing

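Single genes had values under 21 or 22 alternatives, over which 18 of the 35 measured genes kept their sign and 17 changed it in at least 1, among them none of Clspn, Tyms, Tipin and Mcm4. Of all tested probes 2 passed 5%. Median scaling gave 10, the authors' normalised values 5, eBayes with trend and robust settings 4, probes detected on all 10 arrays 1, no array set term 1, array set 1 alone 0 and array set 2 alone 0. Leaving out 1 sample gave 1 to 4. Of the replication genes, 1 (Clspn) passed under median scaling, 1 in the authors' value table and 1 without the filter, and 0 with any single sample left out. The median difference of 0.23 was 0.42 under median scaling, where the median of all probes moved to 0.19, and 0.19 to 0.32 with 1 sample left out. Genes higher in the knockout then numbered 26 to 31.

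Signs changed as follows, and the cause was not tested. In array set 1 alone, Orc6 was at -0.0033, Fen1 at -0.042, Pcna at -0.050, E2f1 at -0.13, Rfc2 at -0.15, Mcm10 at -0.18, Cdc45 at -0.23, Mcm2 at -0.25, Chaf1a at -0.30, Lig1 at -0.40 and Cdt1 at 0.041. In array set 2 alone, Mcm7 was at -0.19 and Pola2 at 0.067. Pola2 was at 0.010 with array weights, and Rfc4 at 0.050 as the mean of its probes. Under median scaling Dut was at 0.092, Pola2 at 0.16 and Cdt1 at 0.18. With 1 sample left out, the ranges that crossed 0 were those of Pold1 (-0.074 to 0.17), Mcm2 (-0.030 to 0.14), Lig1 (-0.14 to 0.20), Cdt1 (-0.11 to 0.058), Rfc5 (-0.052 to 0.20), Mcm7 (-0.37 to 0.44), Dut (-0.24 to 0.0085), Rfc2 (-0.0071 to 0.11) and Cdc45 (-0.079 to 0.15).

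No paired analysis was possible because every sample has a number of its own. Dim probes near background, such as those of Pcna and Ccne2, have compressed differences on this scale, and genes detected on fewer than 5 arrays have none. The 35 genes are not independent, and 5 samples per genotype in array sets of 2 and 3 leave standard errors of 0.12 to 0.37.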

Other observations

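The array sets differed for 4 of the 35 measured replication genes past 5% (limma), all higher in set 2, where 19.2% of all tested probes differed. Uhrf1 was higher by 1.59 log2 units (adjusted p = 6.9e-05), Lig1 by 1.12 (0.00398), Cdt1 by 0.63 (0.00648) and Tyms by 0.51 (0.0375). Dim probes of Mcm6 and Rfc4 that do not represent their genes were higher by 1.24 and 1.34 in set 2, while their representative probes differed by 0.23 and -0.24. No member had a genotype difference that itself differed between the sets past 5%, the lowest adjusted p of the interaction being 0.999 over all probes.

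Markers of other cells of the gut wall are given as values, beside 49.8% of all measured genes with a difference above 0. Among these markers 1 gene passed 5% (limma), Fbln2, an extracellular matrix fibulin of the fibroblast list. It was lower in the knockout, with a difference of -2.28 ± 0.21 log2 units (SE, adjusted p = 0.000876). The WT mean of Fbln2 was 7.57 and the knockout mean 5.29, its probe was detected on 6 of 10 arrays, and the genotypes did not overlap. Of Paneth cell markers 2 of 7 measured genes were higher, with a median of -0.014, Mptx1 at 0.29 ± 0.16 and Lyz1 at -0.18 ± 0.12 having the lowest p. Goblet cell markers gave 5 of 7 measured genes higher, with a median of 0.16, Spink4 at 0.39 ± 0.12 and Gfi1 at 0.18 ± 0.14 having the lowest p. Retnlb and Atoh1 were detected on no array. For plasma cells it was 1 of 3 measured genes higher, with a median of -0.030, Mzb1 at 0.44 ± 0.30 and Sdc1 at -0.087 ± 0.17 having the lowest p. Jchain, Prdm1 and Derl3 were detected on no array. Smooth muscle markers gave 8 of 9 measured genes higher, with a median of 0.12. Of these 9 genes, 8 took opposite signs in the sets and 1 was higher in both. The smooth muscle median was -0.18 for set 1 only, against 0.36 for set 2 only. Tagln at 0.46 ± 0.23 and Mylk at 0.28 ± 0.19 had the lowest p. Synpo2 was detected on no array. The fibroblast list, Fbln2 included, gave 7 of 10 measured genes higher, with a median of 0.29, Fbln2 at -2.28 ± 0.21 and Dpt at 0.50 ± 0.16 having the lowest p. Enteric neuron and glia markers gave 1 of 4 measured genes higher, with a median of -0.45, Npy at -0.64 ± 0.18 and Uchl1 at -0.57 ± 0.18 having the lowest p. Elavl4, Tubb3, Snap25, S100b and Gfap were detected on no array. For pancreas it was 1 of 2 measured genes higher, with a median of -0.10, Ctrb1 at -0.28 ± 0.18 and Cela1 at 0.084 ± 0.13 having the lowest p. Prss2, Cela2a, Cpa1, Cpb1, Amy2a5 and Cel were detected on no array. Blood markers gave 0 of 2 measured genes higher, with a median of -0.50, Hbb-bt at -0.46 ± 0.19 and Hba-a1 at -0.55 ± 0.42 having the lowest p. The Hbb-bt probe was detected on 5 of 10 arrays.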
